A study of Saccharomyces cerevisiae with 151 samples.

Results

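SRX1 (YKL086W) encodes sulfiredoxin of the budding yeast Saccharomyces cerevisiae, and its transcript is described here in every strain and at every time of a series on 3-aminotriazole (3AT). It is 1 of 5611 genes tested, and 1 probe set of the array is annotated to it. The gene was chosen from these data: it had the largest early difference from 0 min in wild type (WT), and a smaller one in every deletion strain at 20 min. Those values are therefore given as a description, with no test. In the RefSeq annotation the gene lies between CYT2 (YKL087C) and MDH1 (YKL085W).

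Sulfiredoxin reduces peroxiredoxins, the thiol peroxidases that remove hydrogen peroxide, after their catalytic cysteine has been oxidised to sulfinic acid, and so returns them to the catalytic cycle. Peroxiredoxins draw their electrons from thioredoxin, which thioredoxin reductase recharges with NADPH. In budding yeast SRX1 is a known target of Yap1, the main transcription factor of the response to peroxide.

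The strains derive from BY4741, a laboratory strain of mating type a. They carried a deletion of GCN4 (gcn4), LEU3 (leu3), GAT1 (gat1), both genes of a pair (gat1gcn4, gcn4leu3, gat1leu3) or MET31 (met31), and WT carried none of these. Gcn4 and Leu3 act on amino acid genes (Leu3 on the branched-chain pathway), Gat1 on genes repressed by good nitrogen sources, and Met31 on sulfur genes. Cultures in synthetic complete medium were kept at 28 °C; at an OD600 of 0.5 the 0 min sample was taken, and 3AT, an inhibitor of the His3 enzyme, was added to 100 mM. Samples of gcn4, leu3, gat1 and WT were collected at 0, 10, 20, 30, 45, 60, 90 and 120 min; those of the double deletions and met31 ended at 60 min. Each time took 200 ml from 1 culture of 1.6 or 1.4 l, so the times of a replicate may share a culture. The 0 min samples are the only ones without 3AT: no mock-treated course was analysed here, and time in culture and 3AT cannot be told apart.

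Of 151 single-colour Affymetrix arrays, 145 from 50 groups entered the tests. Of these groups 45 had 3 arrays and 5 had 2, and met31 had 1 array at each time. The number of arrays limits the precision, and the labels do not say whether replicates are separate cultures, so that a p-value covers only the spread of these arrays, which can be technical. All arrays were rescaled to a 2% trimmed mean of 500. As deposited, 78 arrays had a trimmed mean near 501, while 73 had 22.4 to 104: replicate 3 of gcn4 and leu3 and all arrays of the double deletions and met31. For the double deletions against WT, strain and deposited scale cannot be told apart. The deleted genes were low in their strains: GCN4 had a median signal of 258 in gcn4, 27.1 in gat1gcn4 and 17.8 in gcn4leu3, against 6734 in WT, and LEU3, GAT1 and MET31 had medians of at most 8.48 in the strains labelled as lacking them, against 117, 138 and 449 in WT. Exceptions were the library labelled gcn4 90 min replicate 3, with a GCN4 signal of 2285, and the library labelled WT 30 min replicate 2, with a LEU3 signal of 1.05. BY4741 lacks LEU2 and MET17, whose strain medians were at most 33.5 and 18.8. URA3, also absent from BY4741, had a median of at most 3.96 except in gat1gcn4 (103), gcn4leu3 (666) and gat1leu3 (507). MFA1, which cells of mating type a express, had strain medians of 4660.4 to 22175, and HIS3, partly deleted in BY4741, of 1564 to 3526. The lowest MFA1 signal in gat1leu3 was 3.27, against a median of 15175 in that strain, and the MFA1 probe set may also read other genes.

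SRX1 was detected in every strain: its signal lay above the floor of the array, the 20th percentile of the probe sets, on all 151 arrays. A signal over 1000 was read on 4 of 121 arrays of deletion strains with replicates, on 0 of 6 met31 arrays and on 10 of 24 WT arrays. The 4 deletion arrays were all gcn4 (1 at 20 min, 2 at 30 min and 1 at 45 min), and the 10 WT arrays were the 9 from 10 to 30 min and 1 at 45 min.

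At 20 min, the time on which the gene was chosen, SRX1 had signals of 1432, 771 and 497 in gcn4, 347, 235 and 403 in leu3, and 221 and 99.9 in gat1. The double deletions had 207, 195 and 197 in gat1gcn4, 482, 564 and 541 in gcn4leu3, and 413, 537 and 694 in gat1leu3, and WT had 4517, 7210.0 and 4716. Every WT array stood above every deletion array, and the nearest pair was 1432 in gcn4 against 4517 in WT. Against its own 0 min, the change at 20 min on the log2(signal + 16) scale was 1.64 in gcn4, 0.79 in leu3, 0.46 in gat1, -0.41 in gat1gcn4, 1.47 in gcn4leu3 and 0.76 in gat1leu3, against 5.36 in WT. The sign of the gat1gcn4 value rests on the 0 min arrays: it was 0.61 without replicate 1 of 0 min and -1.43 without replicate 3. The highest group mean of any time was 10.0 to 24.0 times lower in leu3, gat1, the 3 double deletions and met31 than in WT, and 5.59 times lower in gcn4. The times of these means differ: that of gat1gcn4 was at 0 min, before 3AT (346, from 2 arrays). For met31 the value is that of 1 array.

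**Figure D1:**
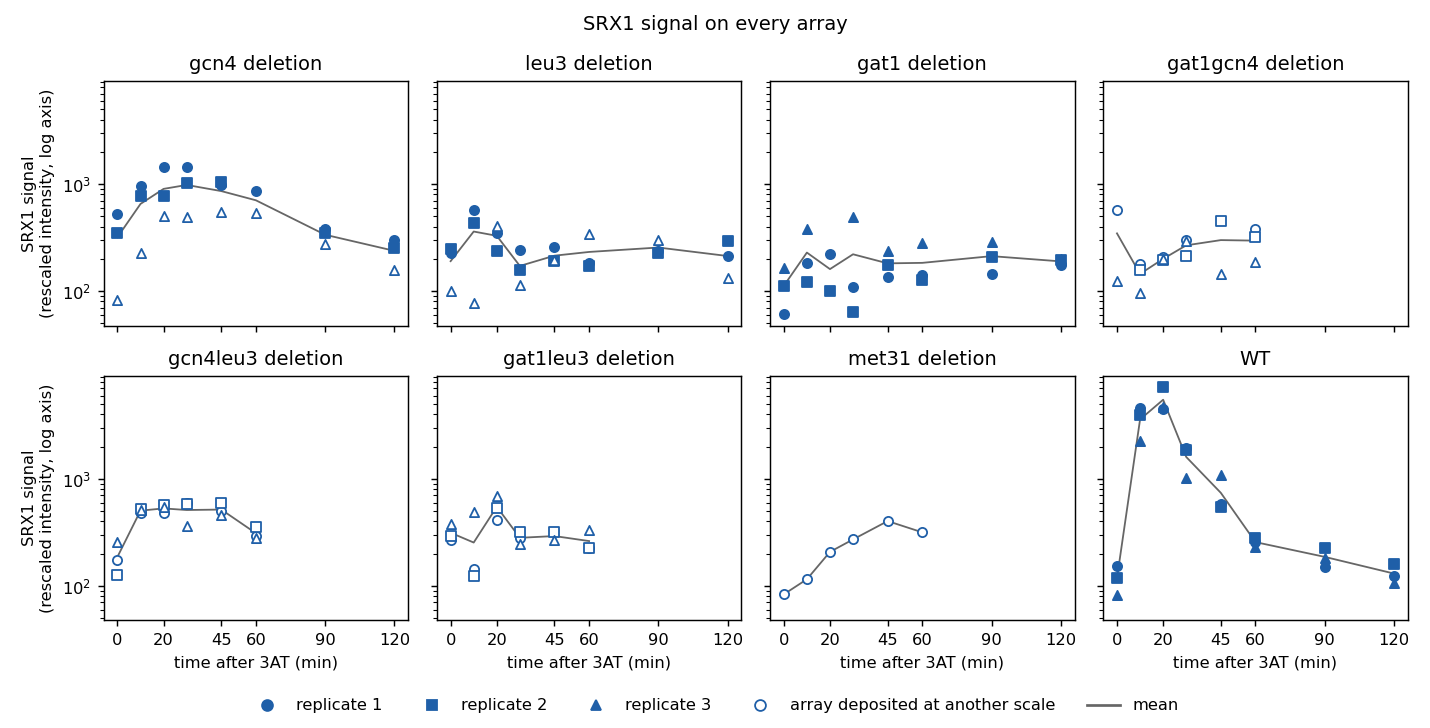
SRX1 signal (rescaled intensity, log axis) on each of the 151 arrays against time after 3AT in minutes, 1 panel per strain. Symbols are replicates, open symbols are arrays deposited at another scale, and lines join group means. The 20 min arrays lie between 99.9 and 1432 in the deletion strains with replicates and between 4517 and 7210.0 in WT.

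In WT, SRX1 formed a pulse that was high within 10 min and back near its 0 min level by 120 min. Its signals were 154, 118 and 81.8 (0 min), 4598, 3911 and 2253 (10 min), 4517, 7210.0 and 4716 (20 min), and 1945, 1847 and 1008 (30 min). All 9 arrays from 10 to 30 min were far above the 3 arrays of 0 min, and the 10 and 20 min arrays overlapped each other. The change was 4.72 ± 0.48 (SE) at 10 min, 5.36 ± 0.48 at 20 min and 3.57 ± 0.48 at 30 min. On this scale the first 2 correspond to 26.4-fold and 41.1-fold. No gene had a larger change at 10 or 20 min; the next was FRM2, a nitroreductase-like gene (3.01 and 4.33), and at 30 min FIT2, a mannoprotein that helps retain siderophores, was ahead of SRX1 (4.48). Without the library in which LEU3 read 1.05, the change at 30 min was 3.44.

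The later times of WT were not used to choose the gene, but their changes are taken from the same 0 min arrays as the early rise; the changes of the deletion strains likewise share the 0 min arrays of the 20 min values. At 45 min the signals were 586, 542 and 1091, with a mean of 739 ± 305, against 118 ± 36.2 at 0 min (SD, n = 3 each). All 3 arrays stood above those of 0 min, replicate 3 highest, and SRX1 rose by 2.46 ± 0.48 (5.5-fold, limma adjusted p = 0.00054, two-sided, 95% interval 1.51 to 3.41). At that time 0.481% of all genes rose. The call held in each fit without 1 array (2.15 to 2.65). It was lost in the values as deposited, without rescaling (2.46 ± 0.84, adjusted p = 1.0).

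From 60 min on no WT call was made for SRX1. The signals were 259, 281 and 229 (60 min), 150.3, 228 and 182 (90 min), and 125, 161 and 106 (120 min). The 60 min arrays were all above those of 0 min, while those of 90 and 120 min overlapped them. The change was 1.06 ± 0.48 at 60 min (limma adjusted p = 0.62, 95% interval 0.10 to 2.01), 0.62 ± 0.48 at 90 min (0.86, -0.34 to 1.57) and 0.15 ± 0.48 at 120 min (0.96, -0.80 to 1.10). These intervals leave room for a change of up to 2.01 at 60 min.

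Before 3AT, SRX1 had signals of 527, 345 and 82.8 in gcn4, 225, 245 and 101 in leu3, and 60.5, 112 and 163 in gat1. In the double deletions it had 567 and 125 in gat1gcn4, 176, 128 and 256 in gcn4leu3, and 269, 293 and 379.9 in gat1leu3, against 154, 118 and 81.8 in WT. The arrays of gat1leu3 were the only ones of a strain that all stood above WT; the other 5 strains overlapped it. The difference from WT was 1.32 ± 0.48 in gat1leu3 (limma adjusted p = 0.085, 95% interval 0.37 to 2.27), 1.13 ± 0.54 in gat1gcn4 (0.32, 0.07 to 2.20) and 1.04 ± 0.48 in gcn4 (0.26, 0.09 to 1.99). It was 0.58 in gcn4leu3, 0.57 in leu3 and -0.11 in gat1. None of these 6 comparisons passed the test, and 3 had an unadjusted p below 0.05. The same 0 min arrays entered the changes on which the gene was chosen. That choice favours low WT and high deletion values at 0 min, which limits these p-values. Replicate 3, the lowest array of both gcn4 and gat1gcn4 at 0 min, decides their calls: without it the difference was 1.76 in gcn4 (limma adjusted p = 0.012) and 2.16 in gat1gcn4 (0.038, with 1 array left, whose spread is taken from the other groups). In the same comparisons 4.81% of all genes were called in gcn4, 0.178% in leu3, 0.0891% in gat1, 4.38% in gat1gcn4, 3.4% in gcn4leu3 and 6.68% in gat1leu3. By level, gat1gcn4 and gcn4 came first, followed by gat1leu3, leu3, gcn4leu3, WT, gat1 and met31. All neighbours in that order overlapped except gat1leu3 and leu3.

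The gcn4 strain was the deletion strain with the highest SRX1 signals. Its highest mean came at 30 min, against 20 min in WT, and its arrays of 20, 30 and 45 min overlapped. Its arrays read 959, 770.4 and 226 (10 min), 1428, 1016 and 495 (30 min), 986, 1039 and 551 (45 min), and 867 and 541 (60 min). At 90 min they read 384, 351 and 272, and at 120 min 302, 253 and 157. Replicate 3, the only replicate deposited at another scale, was lowest at 8 of 8 times, at 0 min too. The group mean was highest at 30 min (979.8 ± 467), against 318 ± 224 at 0 min (SD, n = 3 each), and these groups overlapped by 1 array each. SRX1 rose in gcn4 by 1.77 ± 0.48 at 30 min (limma adjusted p = 0.021, 95% interval 0.81 to 2.72) and by 1.65 ± 0.48 at 45 min (adjusted p = 0.037, 0.70 to 2.60). Over all genes, 1.18% rose at 30 min and 1.1% at 45 min.

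Both gcn4 calls depend on single arrays. Without 1 array at a time the 30 min change ranged from 1.04 to 2.27 (adjusted p 0.012 to 0.20) and the 45 min change from 0.93 to 2.16 (0.021 to 0.32). The 30 min call was lost without replicate 2 or 3 of 0 min or replicate 1 or 2 of 30 min, and the 45 min call without replicate 2 or 3 of 0 min or replicate 1 or 2 of 45 min. In a fit of gcn4 arrays alone neither was called (adjusted p = 0.11 at 30 min and 0.16 at 45 min), nor in the values as deposited (1.5 and 1.48, adjusted p = 1.0 for both). With only the arrays at the common scale the 30 min change was called (1.46, 0.034) and the 45 min change was not (1.21, 0.11), and with the deposited scale as a block both were (0.0071 and 0.015). At 10, 60, 90 and 120 min the change was 1.09, 1.39, 0.38 and -0.13, with limma adjusted p of 0.15, 0.23, 0.86 and 0.93. With the replicate number as a block those of 10 and 60 min were called (1.09 and 1.49). Without the library in which GCN4 read 2285, the 90 min change was 0.51.

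In leu3 and gat1 the SRX1 signal was at most 569 in leu3 and 489 in gat1, and no tested change was called. The leu3 arrays read 569, 433 and 77.3 (10 min), 243, 158 and 114 (30 min), 257, 191 and 194 (45 min), and 182, 171 and 342 (60 min). The last arrays read 234, 228 and 303 (90 min) and 212, 293 and 133 (120 min). Each of these groups overlapped the leu3 arrays of 0 min. The 6 tested changes lay between -0.11 and 0.58, with limma adjusted p of 0.82 to 0.98 and 95% intervals within -1.06 and 1.53.

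The gat1 arrays read 184, 120.4 and 382 (10 min), 109, 63.2 and 489 (30 min), 134, 175 and 235 (45 min), and 142, 126 and 282 (60 min). They read 143, 206 and 287 at 90 min and 176, 193 and 199 at 120 min. Replicate 3 was the highest at 7 of 8 times and its array of 20 min was not analysed here, so the 20 min mean of gat1 (160.4 ± 85.5, n = 2) rests on the other replicates. At 120 min the arrays all stood above those of 0 min, and at the other times the groups overlapped. The 6 tested changes lay between 0.50 and 0.88, all above 0 and none called (limma adjusted p 0.51 to 0.73, 95% intervals within -0.45 and 1.83).

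The double deletions differed among themselves. In gcn4leu3 the signals were 481, 525 and 507 (10 min), 593, 578 and 363 (30 min), 496, 597 and 456 (45 min), and 292, 358 and 281 (60 min). All of these arrays stood above the 3 of 0 min (128 to 256), and from 10 to 45 min the group means lay between 504 and 529. The change was 1.41 ± 0.48 at 10 min, 1.40 ± 0.48 at 30 min, 1.43 ± 0.48 at 45 min and 0.73 ± 0.48 at 60 min (limma adjusted p = 0.092, 0.15, 0.092 and 0.54). None was called. With array quality weights each was called (1.62, 1.69, 1.64 and 0.99). Those of 10, 30 and 45 min were also called in a fit of gcn4leu3 arrays alone, and with the replicate number as a block. Without replicate 3 of 0 min, the highest of that group, the changes at 10 and 45 min were called (1.65 and 1.67, limma adjusted p = 0.045 and 0.048).

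In gat1gcn4 the arrays read 180.5, 157 and 95.9 (10 min), 300.3, 211 and 291 (30 min), 453 and 146 (45 min), and 383, 317 and 187 (60 min). Its 0 min mean rests on signals of 567 and 125, which are far apart. Without the array of 567 the changes at 10 and 30 min were 0.15 and 0.99, and without that of 125 they were -1.90 and -1.06. With both arrays the tested changes lay between -0.88 and 0.07, with limma adjusted p of 0.99 to 1.0 and 95% intervals within -1.94 and 1.13. In gat1leu3 the arrays read 145, 123 and 494 (10 min), 279, 319.6 and 245 (30 min), 317 and 267 (45 min), and 226, 226 and 335 (60 min). Replicate 3 stood apart from the other 2 at 10 min. These changes lay between -0.54 and -0.09 (limma adjusted p 0.84 to 1.0, 95% intervals within -1.49 and 0.98).

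The met31 strain had 1 array at each time and entered no test. Its SRX1 signal was 83.4 at 0 min, 115 at 10 min, 208 at 20 min, 272 at 30 min, 403 at 45 min and 316 at 60 min. The highest value came at 45 min, 4.83 times that of 0 min. The difference has no replicate check. Over the deletion strains with replicates, 30 changes from 0 min were tested and 2 called, and 7 had an unadjusted p below 0.05, all in gcn4 or gcn4leu3.

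The change from 0 min was also compared directly between each deletion strain and WT. At 20 min the difference on the log2 scale was -3.72 in gcn4, -4.57 in leu3, -4.90 in gat1, -5.77 in gat1gcn4, -3.89 in gcn4leu3 and -4.60 in gat1leu3. It was the lowest of all genes in each strain, and the choice of the gene fixed its sign. At 10 min it was -3.31 (gcn4leu3) to -5.60 (gat1gcn4), and at 30 min -1.80 (gcn4) to -3.71 (gat1leu3). The deletion strain nearest to WT was thus gcn4leu3 at 10 min and gcn4 at 20 and 30 min. These values describe the rise on which the gene was chosen.

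From 45 min on the differences were tested. They subtract the same 0 min arrays that entered the choice of the gene. That choice favours negative differences, which limits these p-values. At 45 min the values were -0.81 ± 0.68 in gcn4, -2.23 ± 0.68 in leu3, -1.78 ± 0.68 in gat1, -2.52 ± 0.76 in gat1gcn4, -1.03 ± 0.68 in gcn4leu3 and -2.55 ± 0.72 in gat1leu3. None passed limma's test (adjusted p = 0.85, 1.0, 0.93, 0.12, 0.69 and 0.21), although the unadjusted p was below 0.05 in leu3, gat1, gat1gcn4 and gat1leu3. With array quality weights the difference was called in leu3 (-2.06) and gat1leu3 (-2.22), and without replicate 2 of 45 min in gat1gcn4 (-3.29, adjusted p = 0.045), which leaves 1 gat1gcn4 array assumed to vary like the other groups. At 60 min the differences lay between -1.31 in gat1leu3 and 0.33 in gcn4, and at 90 and 120 min, in the single deletions alone, between -0.28 and 0.62. Of the 18 tests limma called 0, and 4 had an unadjusted p below 0.05, all at 45 min. The main fit does not pair arrays by replicate number. With that number as a block, gat1gcn4 (-2.38, limma adjusted p = 0.019) and gat1leu3 (-2.67, 0.014) were called lower at 45 min. At 45 min the share of all genes called lower was 0.0713% in gcn4 and 0% in each of the other 5 strains, where 54 to 156 of 5611 genes had an unadjusted p below 0.05 in that direction.

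**Figure D2:**
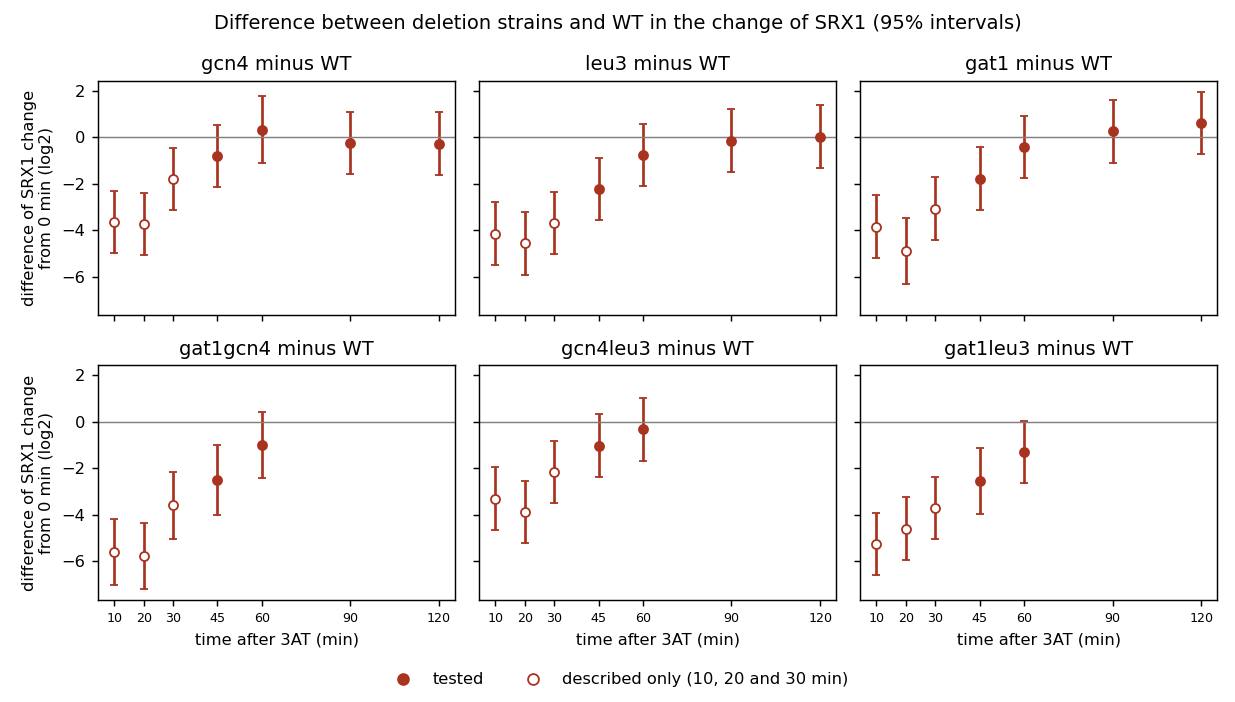
Difference between each deletion strain and WT in the change of SRX1 from 0 min (log2(signal + 16) scale, with 95% intervals) against time after 3AT in minutes. Open points at 10, 20 and 30 min hold the rise on which the gene was chosen and are descriptions, and filled points were tested. At 20 min the points lie between -5.77 and -3.72, and at 60 min between -1.31 and 0.33.

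The deletion strains also differed among themselves at 20 min. Their arrays of that time were used to choose the gene, so these differences are descriptions, with no test. SRX1 was higher in gcn4 than in gat1, with signals of 1432, 771 and 497 in gcn4 against 221 and 99.9 in gat1. The groups did not overlap, and the difference was 2.34 ± 0.54 (SE). Between gcn4 and leu3 it was 1.31 ± 0.48, and between leu3 and gat1 1.02 ± 0.54, and the arrays of each pair were separate.

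Among the double deletions at 20 min, gat1gcn4 had 207, 195 and 197, below the 482, 564 and 541 of gcn4leu3 and the 413, 537 and 694 of gat1leu3. The difference was -1.33 ± 0.48 from gcn4leu3 and -1.36 ± 0.48 from gat1leu3. The gcn4leu3 and gat1leu3 groups overlapped and differed by -0.02 ± 0.48.

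At 60 min, gcn4 arrays of 867 and 541 stood above all arrays of leu3 (171 to 342) and gat1 (126 to 282). The differences were 1.57 ± 0.54 against leu3 and 1.90 ± 0.54 against gat1, with limma adjusted p of 0.15 and 0.12. Neither was called. The double deletions overlapped at 60 min and differed by -0.11 to 0.25.

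Across the 64 tests of SRX1, 3 were called and 18 had an unadjusted p below 0.05. The 3 were WT at 45 min and gcn4 at 30 and 45 min.

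The transcripts most like SRX1 were found by the Pearson correlation of group means over the 50 groups, each strain centred on its own mean, among 5455 genes. The groups share arrays of 1 strain and 1 time series, and the values are descriptions. TRR1, thioredoxin reductase (0.81), HMX1, a heme oxygenase (0.81), GPX2, a glutathione peroxidase homologue (0.80), and YLR108C, a gene of unknown function (0.79), came first. FRM2 (0.73), the siderophore transporter SIT1 (0.71), the glutathione transferase GTO3 (0.70), mitochondrial superoxide dismutase SOD2 (0.68), the mRNA decay factor TIS11 (0.68) and the copper ATPase CCC2 (0.67) followed. The WT pulse weighs heavily in these values. In the 8 WT groups alone they were 0.90 to 0.98, and in the 42 deletion groups alone 0.12 (CCC2) to 0.65 (YLR108C). In the deletion groups alone DLD1, a D-lactate dehydrogenase (0.76), and ARG80, a regulator of arginine genes (0.73), led, and 2 of the 10 genes remained among the first 10. With Spearman's rho 5 of them remained. The most unlike were SCM4 (-0.63), DCP1, a decapping subunit (-0.63), CTL1 (-0.62), and the heme synthesis genes HEM14 (-0.61) and HEM13 (-0.60).

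At 20 min, TRR1 changed by 0.50 in gcn4, 0.54 in leu3, 0.18 in gat1, 0.04 in gat1gcn4, 0.29 in gcn4leu3 and 0.24 in gat1leu3, against 1.82 in WT. HMX1 kept more of its change, with 1.15 to 1.81 in the deletion strains against 3.92 in WT. YLR108C in gcn4 was near WT (2.01 in gcn4 against 2.35 in WT), where SRX1 had 1.64 in gcn4 against 5.36 in WT.

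**Figure D3:**
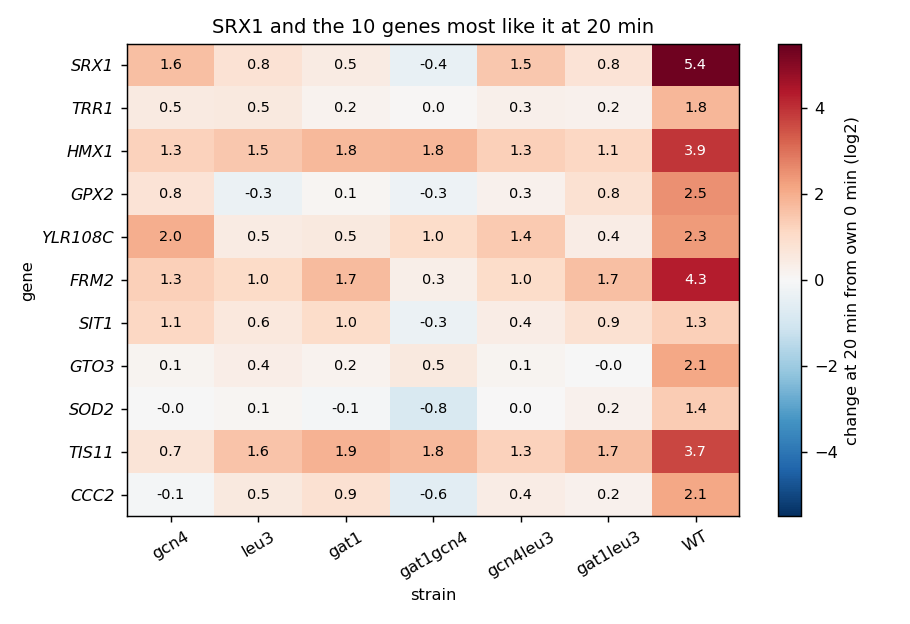
Change at 20 min from the own 0 min of each strain (log2(signal + 16) scale, as colour and number) for SRX1 and the 10 genes whose group means were most like it. Columns are the 6 deletion strains with replicates, then WT. SRX1 has 1.64 in gcn4 and 5.36 in WT, and YLR108C 2.01 in gcn4 and 2.35 in WT.

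Sulfiredoxin acts on peroxiredoxins. Of their 5 genes, TSA2, the less abundant cytosolic one, and PRX1, the mitochondrial one, rose in WT at 20 min. TSA2 averaged 430.4 ± 218 at 20 min, against 80.7 ± 8.24 at 0 min (SD, n = 3 each), a change of 2.08 ± 0.45 (limma adjusted p = 0.0019). PRX1 averaged 1041 ± 525, against 254 ± 56.1, a change of 1.87 ± 0.49 (adjusted p = 0.016). Their changes were larger at 30 min (2.52 in TSA2 and 2.36 in PRX1), when that of SRX1 was already smaller than at 20 min. Whether any of these genes differed between 20 and 30 min was not tested. TSA1, the main cytosolic peroxiredoxin, averaged 16223 ± 4149 at 20 min, against 11011 ± 368 at 0 min, a change of 0.53 ± 0.26 that was not called (adjusted p = 0.36). AHP1 (0.58 ± 0.24) and nuclear DOT5 (0.58 ± 0.34) were not called either. At 20 min 1.23% of all genes rose in WT.

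In the thioredoxin system TRR1 rose in WT at 10 min by 1.24 ± 0.22 (limma adjusted p = 0.00021), at 20 min by 1.82 ± 0.22 (2.2e-09), at 30 min by 1.84 ± 0.22 (3.0e-09) and at 45 min by 1.34 ± 0.22 (4.0e-05). Its group means were 6525, 9897, 9964 and 7116 at those times and 2768 at 0 min. TRX2, a cytosolic thioredoxin, was called at 30 min (1.36 ± 0.30, adjusted p = 0.0032) and 45 min (1.18 ± 0.30, 0.021). At 20 min 1 of the 5 thioredoxin system genes, TRR1, was called, and 3 were higher at an unadjusted p below 0.05. Whether TRX2 differed between 20 and 30 min was not tested. In the glutathione system 1 of 14 genes, GPX2, rose at 20 min, by 2.50 ± 0.45 (adjusted p = 8.6e-05). GSH1, which makes glutathione's precursor, had 1.18 ± 0.38 and was not called (0.087).

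Of the catalases, peroxidase and superoxide dismutases, CCP1, the mitochondrial cytochrome c peroxidase (1.36 ± 0.35, limma adjusted p = 0.016), and SOD2 (1.40 ± 0.35, 0.0098) were the 2 of 6 that rose in WT at 20 min. FRM2 (4.33 ± 0.63, 2.9e-07) and the reductase gene GRE2 (1.63 ± 0.44, 0.023) rose among 6 efflux and oxidoreductase genes, and none of 6 NADPH supply genes was called (0 higher and 1 lower at an unadjusted p below 0.05). None of 7 regulators was called in WT at that time (1 higher at an unadjusted p below 0.05): YAP1 had 0.60 ± 0.28 (adjusted p = 0.34) and SKN7 -0.04 ± 0.38 (0.98). These arrays measure the regulators' transcripts, not their activity.

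Over the 7 lists together, 3 of 49 measured genes rose in WT at 10 min, 8 at 20 min, 6 at 30 min, 4 at 45 min, and 0 at 60, 90 and 120 min, and TKL1, transketolase, fell at 120 min, when 0.945% of all genes fell. At an unadjusted p below 0.05, 4, 2 and 1 listed genes were higher at 60, 90 and 120 min. Their median change was 0.11, 0.31, 0.22 and 0.13 from 10 to 45 min, against -0.10, -0.12, -0.08 and -0.08 over all genes. All genes that rose made up 0.642%, 1.23%, 0.945% and 0.481% at these 4 times, and 0.267%, 0.303% and 0.303% at 60, 90 and 120 min. The count at 20 min was 4 to 7 without 1 array at a time, 4 of these fits (without replicate 2 or 3 of 0 min or replicate 1 or 2 of 20 min) falling by over 1.5 times, and that at 45 min was 2 without replicate 1 of 0 min.

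In the deletion strains at 20 min, 0 to 2 of the 49 listed genes rose. None of 49 genes rose in gcn4, leu3, gat1 or gat1leu3 by limma (3, 2, 4 and 2 at an unadjusted p below 0.05), 2 rose in gat1gcn4 and 1 in gcn4leu3 (AHP1, 0.92 ± 0.24, limma adjusted p = 0.033). Over all genes the share that rose was 1.85%, 0.321%, 0.766%, 0.624%, 1.8% and 0.428% in these 6 strains in that order. CTT1, cytosolic catalase, and GND2 fell in gcn4 (2.64% of all genes did), GTT2 in leu3 (0.784%) and MSN4 in gcn4leu3 (0.731%). The 2 genes of gat1gcn4 were TRX1 (1.02 ± 0.30, adjusted p = 0.046) and SOD1 (4.0 ± 0.62, 2.0e-06). SOD1 rests on 1 array: at 0 min it read 10158 in replicate 1 and 10.9 in replicate 3. The later gat1gcn4 arrays read 6960.5 to 10335.5. TRX1 and the gat1gcn4 share over all genes use the same 0 min arrays, and how far they depend on either was not tested.

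The lists were chosen with earlier results of these data known, which limits the p-values of listed genes here and above. Set against WT directly, the 20 min change of TRR1 was smaller in gcn4, gat1, gat1gcn4, gcn4leu3 and gat1leu3, by -1.33 to -1.78 (limma adjusted p 0.00020 to 0.028). The difference was -1.29 in leu3, which was not called (0.069). The change was also lower for TSA2 in gcn4 (-3.32 ± 0.64), GPX2 in leu3 (-2.82 ± 0.64) and gat1gcn4 (-2.79 ± 0.68), and FRM2 in gat1gcn4 (-3.99 ± 0.94). For TSA2 it was -1.24 in gcn4, which was not called, against 2.08 in WT. Called lower in this comparison were 3 of 49 listed genes in gcn4, 3 in leu3, 1 in gat1, 5 in gat1gcn4, 1 in gcn4leu3 and 2 in gat1leu3, while TRX1 and SOD1 were called higher in gat1gcn4, as were 1.32% of all genes. Over all genes the share called lower was 0.178%, 0.0713%, 0.0535%, 0.214%, 0.0891% and 0.41%, in the same order of strains. All gat1gcn4 values here, higher or lower, rest on the 2 unlike 0 min arrays of that strain. How far they depend on either was not tested.

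**Figure D4:**
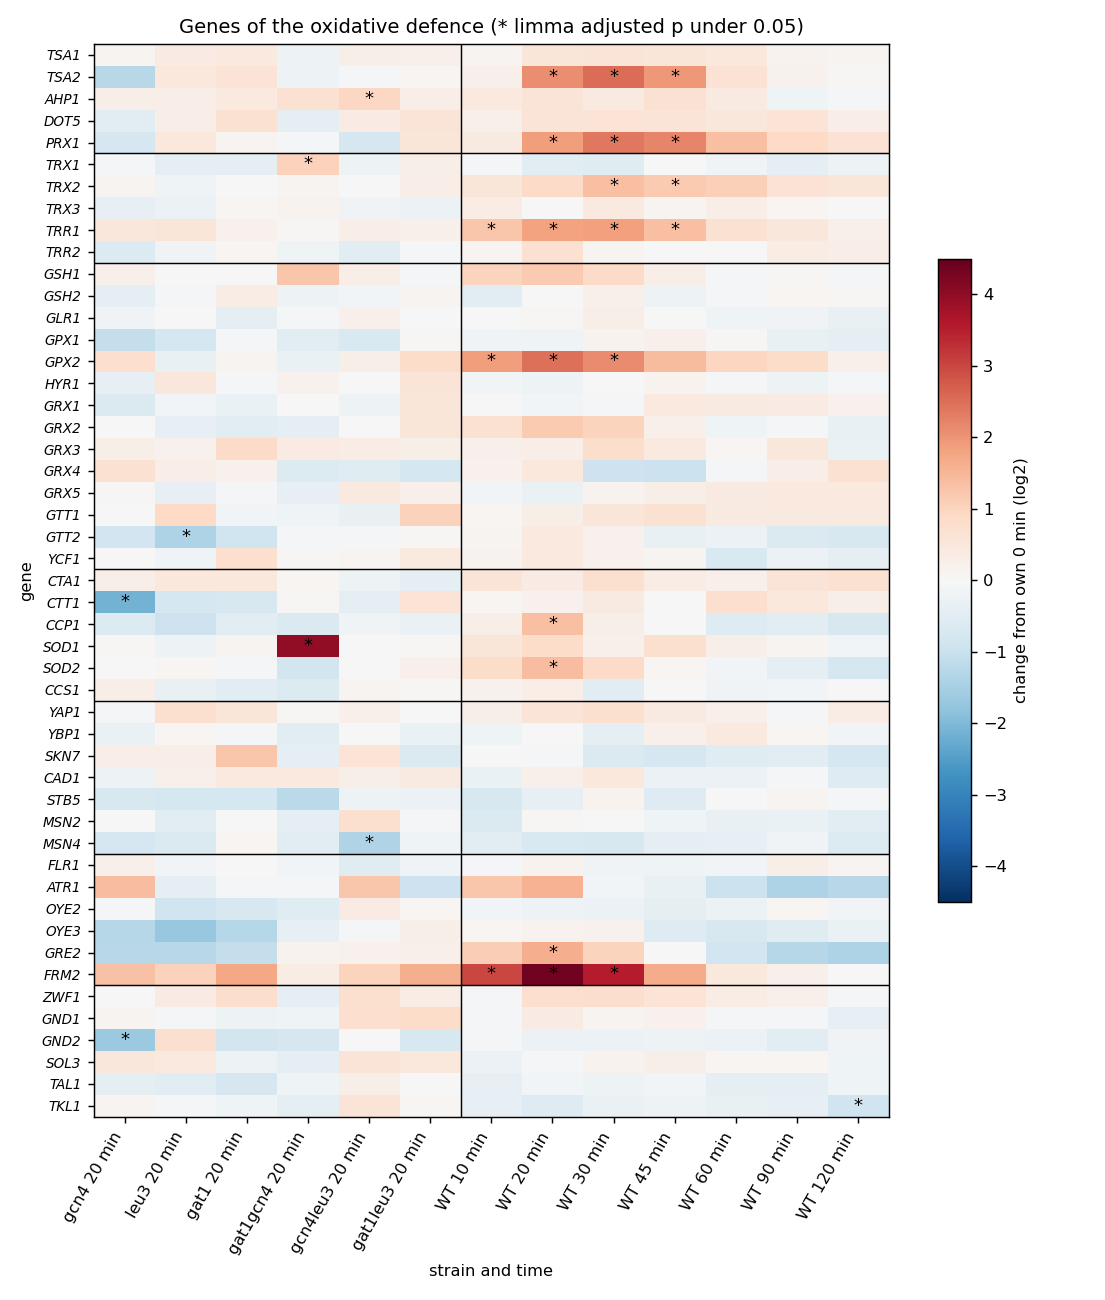
Change from the own 0 min (log2(signal + 16) scale, colour) of 49 genes of the oxidative defence in the deletion strains at 20 min (left of the vertical line) and in WT from 10 to 120 min (right). Horizontal lines separate the 7 lists and asterisks mark limma adjusted p under 0.05. Most asterisks lie in WT from 10 to 45 min, where 3, 8, 6 and 4 genes rose.

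Of the genes beside SRX1, neither was called in WT at 20 min. CYT2 had a change of 1.12 ± 0.36 in WT at 20 min (limma adjusted p = 0.077, unadjusted p = 0.0022), its highest at any time, and MDH1, mitochondrial malate dehydrogenase, -0.95 ± 0.43 (0.30). In gat1 at 20 min CYT2 fell by 1.64 ± 0.40 (adjusted p = 0.0099) and MDH1 by 2.09 ± 0.48 (0.0060), and MDH1 fell in gcn4 by 1.79 ± 0.43 (0.0070). In gat1 1.09% of all genes fell at that time.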

How the data were processed

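The authors deposited 1 linear intensity per probe set and array. The submitters' processing notes name MAS5, without a version. Of 9335 probe sets, 6504 name 1 gene in the platform annotation, matched to current symbols through RefSeq. Each array's signals were multiplied by 1 factor to a 2% trimmed mean of 500, and 16 was added before log2, which understates changes of low signals. Genes above the floor (20th percentile) in most arrays of at least 1 group were kept, 5611 of 5656. limma 3.58.1 in R 4.3.3 (lmFit, eBayes with a trend, 1 coefficient per group, 145 arrays, 95 residual and 9.12 prior degrees of freedom) gave two-sided p-values, adjusted by Benjamini-Hochberg over the 5611 genes of each contrast and called at 0.05. Of 97 contrasts of SRX1, 64 were tested and 33 held early values that chose the gene. These 33 include the 20 min differences between deletion strains, for which a test had been planned. The 64 tested contrasts, except those between deletion strains, also use 0 min arrays that entered the choice. This limits their p-values. Named genes were SRX1, the deleted genes, strain markers and chromosomal neighbours, the 10 genes most like SRX1 and the 5 most unlike it, and 7 lists of 50 genes of the oxidative defence, of which 49 were measured; the genes next to SRX1 in rank (FIT2, FRM2, HMX1) and DLD1 and ARG80 were named after their values were seen. SRX1 and the lists were chosen with earlier results of these data known. The procedure was tested on simulated data. No pair of arrays held identical values. Alternatives were the deposited scale, other normalizations, pseudocounts and filters, array weights, blocks and omission of arrays.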

Additional observations from a re-analysis of the deposited data

Results flagged for a closer look

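In gat1gcn4 the mean SRX1 signal was 145 at 10 min, 199.9 at 20 min and 267 at 30 min, and every array of these 3 times lay below the gat1gcn4 mean of 0 min (346, from signals of 567 and 125). In WT every array of the same times lay above the WT mean of 0 min (118). The difference between the strains was not tested, and the direction in gat1gcn4 rests on which 0 min array is kept. All but 1 of the gat1gcn4 arrays of these 3 times (95.9, at 10 min) lay above the array of 125. With both 0 min arrays the change was -0.88 at 10 min, -0.41 at 20 min and -0.03 at 30 min (log2 scale). Without the array of 567 it was 0.15, 0.61 and 0.99, and without that of 125 it was -1.90, -1.43 and -1.06. The array of 125, replicate 3, also had the SOD1 signal of 10.9, against 6960.5 to 10335.5 on all other gat1gcn4 arrays. For SOD1 the odd array was thus replicate 3 of 0 min. Which of the 0 min arrays is at fault for SRX1 was not tested.

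In met31, whose single arrays entered no comparison, the SRX1 signal was 208 at 20 min, 272 at 30 min, 403 at 45 min and 316 at 60 min, above the highest WT array of 0 min (154).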

How the results depend on the processing

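Over the alternatives, apart from those that leave out 1 array, 993 of 1052 values of the tested SRX1 changes and list counts kept their side of the threshold or stayed within 1.5 times; 7 lost a call, 42 gained one, 9 counts moved further and 1 reversed. The reversed value, the only called one of 35 whose sign turned, was the 0 min difference of gcn4leu3 from WT, -1.69 in the values as deposited, without rescaling, where every array of the double deletions stands at a lower scale. That of gat1gcn4 (-1.16) and gat1leu3 (-1.45) turned there too, with no call; none of the 35 was called with rescaling. In the deposited values calls were lost for WT at 45 min (2.46) and gcn4 at 30 min (1.5) and 45 min (1.48). With the strains of a contrast alone in the fit, calls were lost for gcn4 at 30 min (1.77) and 45 min (1.65), and gained for gat1leu3 against WT at 0 min (1.32) and gcn4leu3 at 10, 30 and 45 min (1.41, 1.40 and 1.43). The gcn4 call at 45 min was also lost with a pseudocount of 1 (1.74) and with arrays at the common scale alone (1.21). The latter gained calls for gcn4 against WT at 0 min (1.76), gcn4 against leu3 at 60 min (2.20), gcn4 against gat1 at 60 min (2.23) and leu3 minus WT at 45 min (-2.54). Array quality weights gained WT at 60 min (1.02), gcn4 against WT at 0 min (1.41), gcn4leu3 at 10, 30, 45 and 60 min (1.62, 1.69, 1.64 and 0.99), gcn4 against leu3 at 60 min (1.71), gcn4 against gat1 at 60 min (1.90), and at 45 min leu3 minus WT (-2.06) and gat1leu3 minus WT (-2.22). The deposited scale as a block gained, against WT at 0 min, gcn4 (1.30), gat1gcn4 (1.92), gcn4leu3 (1.37) and gat1leu3 (2.11); gcn4leu3 at 10 and 45 min (1.41 and 1.43); gcn4 against leu3 (1.70) and gat1 (2.29) at 60 min; and gat1gcn4 minus WT at 45 min (-2.52). The size of that block comes from gcn4 and leu3 alone, the only strains in the fit with arrays at both scales. Against WT at 0 min it shifts every double deletion by the same amount, so it cannot separate their strain from their scale. Median centring (1.5) and quantile normalization (1.48) gained gat1leu3 against WT at 0 min. Where no construction is named, the cause was not tested.

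Deviations of same-numbered arrays from their group means correlated at or below 0.1 in 94 of 442 pairs, and the numbers were not taken as pairing. However, 136 of 145 arrays correlated best with their own number. By strain the median correlation was 0.12 to 0.30 for pairs of the same number and -0.21 to -0.06 for different numbers. The main fit ignores any such link between arrays. With the replicate block, calls were gained for gcn4 at 10 and 60 min (1.09 and 1.49), gcn4leu3 at 10, 30 and 45 min (1.41, 1.40 and 1.43) and, at 45 min, gat1gcn4 minus WT (-2.38) and gat1leu3 minus WT (-2.67). As a random block, chosen after the data were seen, it gained gcn4leu3 at 10, 30 and 45 min (1.41, 1.40 and 1.43), gcn4 against gat1 at 60 min (1.97), gat1gcn4 minus WT (-2.44) and gat1leu3 minus WT (-2.62) at 45 min. 

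The listed genes that rose in WT numbered 3, 8, 6 and 4 from 10 to 45 min. They were 1, 1, 1 and 0 in the deposited values (0 by limma at 45 min), 10, 17 and 8 at 10, 20 and 45 min with array weights, 5 at 10 min at the common scale alone and 13 at 20 min with the replicate block. Over all genes 71, 124, 83 and 61 were called at these times, and 6 to 944, 12 to 719, 6 to 272 and 3 to 562 under the alternatives, lowest as deposited and highest with array weights.

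Omission of 1 array (97 fits) gave 0.53 to 1.76 for gcn4 against WT at 0 min (called without gcn4 replicate 3), 0.11 to 2.16 for gat1gcn4 (called without replicate 3), and -3.54 to -1.5 for gat1gcn4 minus WT at 45 min (called without replicate 2 of that time, with 1 array left). It gave 1.04 to 2.27 and 0.93 to 2.16 for gcn4 at 30 and 45 min, and 1.19 to 1.65 and 1.21 to 1.67 for gcn4leu3 at 10 and 45 min (called without replicate 3 of 0 min). The counts of listed genes were 4 to 7 at 20 min and 2 to 4 at 45 min. To stay within 100 fits, arrays of 10, 30, 90 and 120 min of deletion strains were not omitted, except gcn4 at 30 min and gcn4leu3 at 10 min. SRX1 lay above the array floors of 13.0 to 31.4 on every array.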
